A study of Mus musculus with 36 samples.

Results

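The genes described here are 9 components of the Nodal signalling pathway, chosen by name: Nodal, Lefty1, Lefty2, Tdgf1, Gdf3, Foxh1, Cer1, Furin and Pcsk6. They were followed as the rows that carry these names, 9 of 19834 genes in the table of embryonic stem (ES) cells and embryoid bodies, 7 of 18256 in the table of pancreatic ductal adenocarcinoma (PDA) cells and 7 of 18758 in the table of pancreatic organoids. The main data are 8 RNA-seq libraries of the E14 mouse ES cell line, at day 4 (as embryoid bodies) and day 0. The labels call each culture KO or WT for Rreb1, which encodes a zinc finger transcription factor, and every combination of genotype and day has 2 libraries. Embryoid bodies are aggregates in which ES cells leave pluripotency and form derivatives of the early germ layers. The PDA libraries came from the KSIC_806 line, labelled KO or WT for Rreb1 and treated with 100 pM TGFβ for 1.5 h or with 2.5 µM SB505124, an inhibitor of the TGFβ and Nodal type I receptors, for 6 h, again with 2 libraries per group. The organoid libraries came from CIY organoids of pancreatic epithelial cells with or without 1 µg/mL doxycycline (dox) from plating and with either treatment, 1 library per condition. The labels do not say what dox switches on, how the KO was made, or whether a genotype was 1 clone or several. They also do not explain the mark S4 that all PDA labels carry.

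Nodal is a secreted TGFβ family ligand that specifies mesoderm, endoderm and the body axes in the early mouse embryo. Its precursor is cut by the proprotein convertases Furin and Pcsk6, and Nodal then binds activin receptors together with the membrane-anchored co-receptor encoded by Tdgf1 (Cripto). The receptors activate SMAD2 and SMAD3, which with SMAD4 and DNA-binding partners such as FOXH1 switch on target genes. Among these targets are Nodal itself and the genes of its secreted inhibitors, Lefty1 and Lefty2, so that the pathway holds both a positive and a negative feedback loop. Cer1 encodes another secreted inhibitor, made by the anterior visceral endoderm and by early endoderm and mesoderm. Gdf3 encodes a ligand related to Nodal.

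The sequences just upstream of Nodal, Tdgf1 and Cer1 are shown because these genes encode the ligand, the co-receptor and an inhibitor that moved against both at day 4. They come from RefSeq (GRCm38.p6, the assembly of the mm10 build) and cover the 250 bases before the annotated start, 5′ to 3′ on the strand of the gene. The Nodal stretch is chr10:61417722-61417971 on the plus strand, the Tdgf1 stretch chr9:110946159-110946408 on the minus strand and the Cer1 stretch chr4:82885152-82885401 on the minus strand. Capitals mark the SMAD motif CAGAC.
Nodal: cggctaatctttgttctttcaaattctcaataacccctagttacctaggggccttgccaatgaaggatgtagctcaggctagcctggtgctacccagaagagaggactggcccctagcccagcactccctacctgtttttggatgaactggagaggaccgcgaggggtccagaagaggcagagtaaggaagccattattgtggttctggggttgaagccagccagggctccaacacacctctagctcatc
Tdgf1: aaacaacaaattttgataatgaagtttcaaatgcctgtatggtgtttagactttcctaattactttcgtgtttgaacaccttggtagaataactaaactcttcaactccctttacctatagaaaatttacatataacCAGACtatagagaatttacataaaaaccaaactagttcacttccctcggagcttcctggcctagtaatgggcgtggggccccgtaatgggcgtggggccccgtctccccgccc
Cer1: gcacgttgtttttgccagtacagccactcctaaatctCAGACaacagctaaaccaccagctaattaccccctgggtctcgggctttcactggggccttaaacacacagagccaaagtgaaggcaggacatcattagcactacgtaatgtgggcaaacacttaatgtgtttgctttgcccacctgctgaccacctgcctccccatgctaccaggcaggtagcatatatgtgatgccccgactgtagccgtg

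CAGAC, searched on both strands as CAGAC or GTCTG, occurred 1 time upstream of Cer1, from base -213 to base -209 counted from the start, and 1 time upstream of Tdgf1, from base -113 to base -109. The Nodal stretch held none. Of the 32851 promoters of the same table, taken over the same length, 42.2% held this motif. The longer FOXH1 motif TGTGGATT, the TCF/LEF motif CTTTGA and the T-box motif TCACACCT, present in 0.718%, 13.8% and 1.12% of all promoters, were in none of the stretches of the 5 members with an entry, which were Nodal, Tdgf1, Cer1, Furin and Pcsk6. Furin had 2 annotated starts with 3 CAGAC motifs between them, and Pcsk6 had none. Lefty1, Lefty2, Gdf3 and Foxh1 are named only. A match in these letters is a description and no site of binding.

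Values are the authors' normalized read counts, each a whole number of reads divided by 1 factor per library. They are compared between libraries of the same table and not between genes, since transcript lengths were not used here. Depth was 19.89 to 29.08 M reads in the ES cell and embryoid body libraries, 20.41 to 44.5 M in the PDA libraries and 23.91 to 35.81 M in the organoid libraries. The transcript of the targeted gene, Rreb1, differed between the genotypes in 3 of 4 comparisons, but not in 1 direction. It averaged 1716 ± 289 in KO and 1534 ± 73.7 in WT embryoid bodies at day 4 (SD, n = 2 each), where the groups overlapped and the difference did not pass (limma adjusted p = 0.198). At day 0 it was 2.60-fold higher in KO, at 2736 ± 133 in KO and 1052 ± 47.2 in WT cells (adjusted p = 2.35e-08). In the PDA cells it was 1.56-fold lower in KO under TGFβ, at 2723 ± 230.0 in KO and 4252 ± 57.1 in WT libraries (adjusted p = 0.000364). Under SB505124 it was 1.47-fold higher in KO, at 2179.7 ± 21.9 in KO and 1479.8 ± 30.3 in WT libraries (adjusted p = 0.000564). In these last 3 comparisons the groups did not overlap. Counts of a gene do not show whether a deletion removed part of it, so this checks the labels neither way. Separate cultures are not mentioned in the labels, and the spread behind each p-value is that between the libraries given, which may be technical. Genotype and any other difference between the KO and WT lines cannot be told apart. In these bulk samples fewer cells of a type and less RNA per cell cannot be told apart either.

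The ES cell label was set against a few markers. At day 0 Pou5f1, the core pluripotency factor, stood at 20829.5 and 21349.5 in KO and at 27993 and 28711 in WT cells. Pou5f1 does not mark the day in KO, where embryoid bodies of day 4 had 23459 and 26859. Afp and Ttr, secreted proteins of the visceral endoderm, were at 0.848 or below in all 4 libraries of day 0. At day 4 they were at 2.26 or below in the KO libraries, against 1757 and 1277 (Afp) and 621 and 435 (Ttr) in the WT libraries. Other lineage markers did have counts at day 0. Among them were the visceral endoderm markers Cubn (223 and 224 in WT) and Gata4 (250.2 and 242 in KO) and the neuroectoderm marker Pax6 (987 and 969 in KO).

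At day 4, KO embryoid bodies held 1.71 to 2.58 times as much mRNA of the ligands Nodal and Gdf3, of the inhibitors Lefty1 and Lefty2 and of the co-receptor Tdgf1 as WT embryoid bodies, while Cer1 had no reads in them and Furin was lower. Of the 9 genes, 5 were higher, 3 were lower (Cer1, Furin and Foxh1) and Pcsk6 did not pass the test (limma, adjusted p under 0.05). Cer1 passed the filter on low values through the WT libraries of day 4 alone and so had to differ; of the 8 other genes 5 were higher and 2 lower. This stands against a background in which 56.2% of the 15227 genes tested were called, 27.8% higher and 28.4% lower, so the count by itself sets the members little apart. Their median log2 fold change was 0.78, against -0.01 over all genes. Rescaling the libraries to the same total changed the split over all genes from 4236 higher and 4319 lower to 3428 higher and 5331 lower, and left the 8 calls and their directions as they were.

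At day 0 the picture was different. In KO cells 4 of the 9 genes were higher (Nodal, Gdf3, Furin and Pcsk6) and 4 were lower (Lefty1, Lefty2, Tdgf1 and Foxh1), and Cer1 had no reads in either genotype. All genes were called at a rate of 67.2%, 33.9% higher and 33.3% lower. The median of the 9 was 0.00, which is the value of Cer1, a gene without reads here. Without Cer1 it was 0.04, against -0.00 over all genes. Lefty1 and Lefty2 stood out by size, as the genes ranked 97 and 107 among all that were lower in KO cells.

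**Figure D1:**
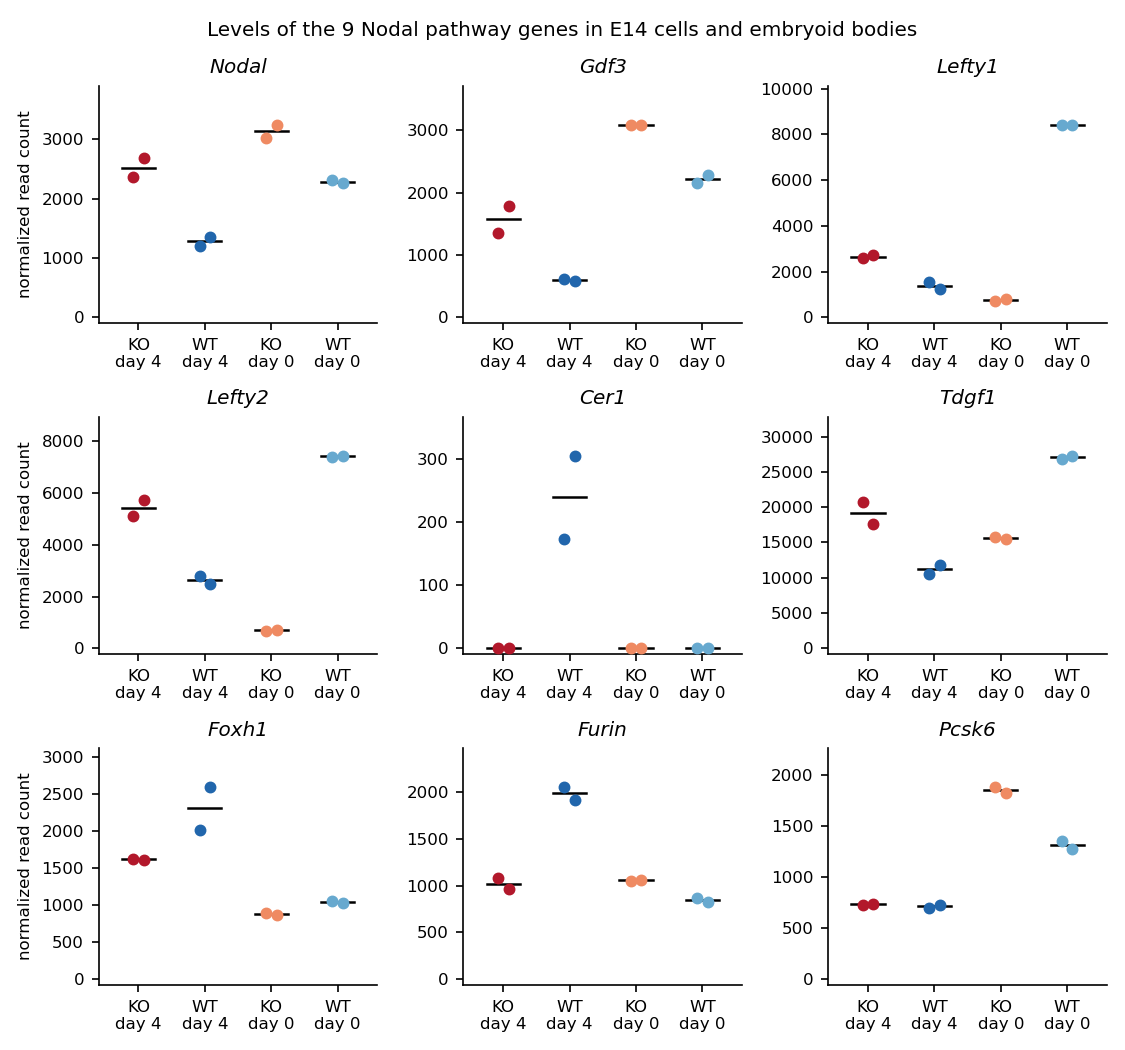
Normalized read counts (vertical axes, linear from 0) of the 9 genes in KO and WT libraries of day 4 and day 0, with 1 point per library and a bar at the mean of the 2 libraries. Lefty1 and Lefty2 are highest in WT cells at day 0, at 7408 to 8427, and lowest in KO cells at day 0, at 679 to 815, while Cer1 has reads only in the WT libraries of day 4 (173 and 305).

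Nodal, the ligand, had counts of 2359.6 and 2686 in KO and of 1204 and 1354 in WT embryoid bodies at day 4. The genotypes did not overlap, and KO libraries were 1.97 times higher (log2 fold change 0.98 ± 0.08, SE; limma adjusted p = 1.65e-07). At day 0 Nodal stood at 3024 and 3249 in KO and at 2309.9 and 2257 in WT cells, again with no overlap and a smaller difference (0.46 ± 0.08, adjusted p = 0.000186). The order of the 4 groups was thus KO day 0, KO day 4, WT day 0 and WT day 4; KO day 4 and WT day 0 were the closest neighbours, with 2359.6 as the lower KO library and 2309.9 as the higher WT library.

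The level of Nodal fell between day 0 and day 4 in both genotypes, by 0.32 ± 0.08 on the log2 scale in KO (adjusted p = 0.00394) and by 0.84 ± 0.08 in WT (adjusted p = 6.46e-07). The fall was smaller in KO: the interaction, the KO change minus the WT change, was 0.52 ± 0.12 (adjusted p = 0.00156).

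Gdf3, the ligand related to Nodal, had the signs of Nodal in every contrast, but not its order of groups: WT day 0 lay above KO day 4. It had counts of 1358 and 1789 in KO and of 617 and 589 in WT embryoid bodies at day 4, a difference of 1.37 ± 0.10 on the log2 scale (2.58-fold, adjusted p = 4.95e-08). At day 0 it had 3094 and 3081 in KO and 2160.0 and 2289 in WT cells (0.47 ± 0.10, adjusted p = 0.000887). All KO libraries lay above the WT libraries of the same day. It fell with time by 0.99 ± 0.10 in KO (adjusted p = 1.46e-06) and by 1.88 ± 0.10 in WT (adjusted p = 1.43e-09), and the interaction was 0.90 ± 0.14 (adjusted p = 0.000124). Over the 8 libraries Gdf3 had a Pearson correlation of 0.944 with Nodal on the log2 scale, a description over libraries that share 4 conditions.

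Lefty1, a secreted Nodal inhibitor, had counts of 714 and 815 in KO cells at day 0, against 8427 and 8416 in WT cells. The difference was -3.46 ± 0.09 on the log2 scale, or 11.0-fold lower in KO (adjusted p = 3.9e-12). At day 4 the order was the opposite, with 2570.1 and 2721 in KO and 1528 and 1247 in WT embryoid bodies (0.94 ± 0.09, 1.92-fold, adjusted p = 9.2e-07). The genotypes did not overlap on either day.

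Over time Lefty1 rose in KO by 1.79 ± 0.09 (3.46-fold, adjusted p = 1.16e-09), whereas in WT it fell by 2.61 ± 0.09 (adjusted p = 2e-11), from the highest level of any group. The interaction was 4.40 ± 0.13 (adjusted p = 2.05e-11) and ranked 21 among the positive interactions of all genes.

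Lefty2, the second inhibitor of the pair, was also lower in KO at day 0 and higher at day 4. It had counts of 679 and 721 in KO and of 7408 and 7453 in WT cells at day 0, a difference of -3.41 ± 0.08 (10.6-fold lower in KO, adjusted p = 1.17e-12). At day 4 it stood at 5121 and 5727 in KO and at 2785 and 2498 in WT embryoid bodies (1.04 ± 0.08, 2.05-fold, adjusted p = 4.32e-08). Its 4 groups did not overlap, in the order WT day 0, KO day 4, WT day 4 and KO day 0.

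In KO, Lefty2 rose 7.73-fold with time (2.95 ± 0.08, adjusted p = 1.46e-12), and in WT it fell by 1.49 ± 0.08 on the log2 scale (adjusted p = 8.08e-10). The interaction was 4.44 ± 0.11 (adjusted p = 6.05e-12), ranked 20. Lefty1 and Lefty2 correlated at 0.903 over the 8 libraries. They are near-identical neighbours on chromosome 1, Lefty2 from base 180893108 to base 180899107 and Lefty1 from base 180935022 to base 180938401, so the division of reads between them is uncertain.

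Set against the ligand in the same library, the inhibitors changed by group. The log2 count of Lefty1 minus that of Nodal was 0.123 and 0.019 in KO and 0.343 and -0.119 in WT embryoid bodies at day 4, and the genotypes overlapped. At day 0 it was -2.080 and -1.994 in KO against 1.867 and 1.899 in WT cells. For Lefty2 the same difference was 1.118 and 1.092 in KO and 1.209 and 0.883 in WT at day 4, and -2.154 and -2.170 in KO and 1.681 and 1.723 in WT at day 0. For both Lefty genes the genotypes thus overlapped at day 4 in this measure, and at day 0 they were far apart. Over the 8 libraries Nodal correlated with Lefty1 at -0.041 and with Lefty2 at -0.271.

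**Figure D2:**
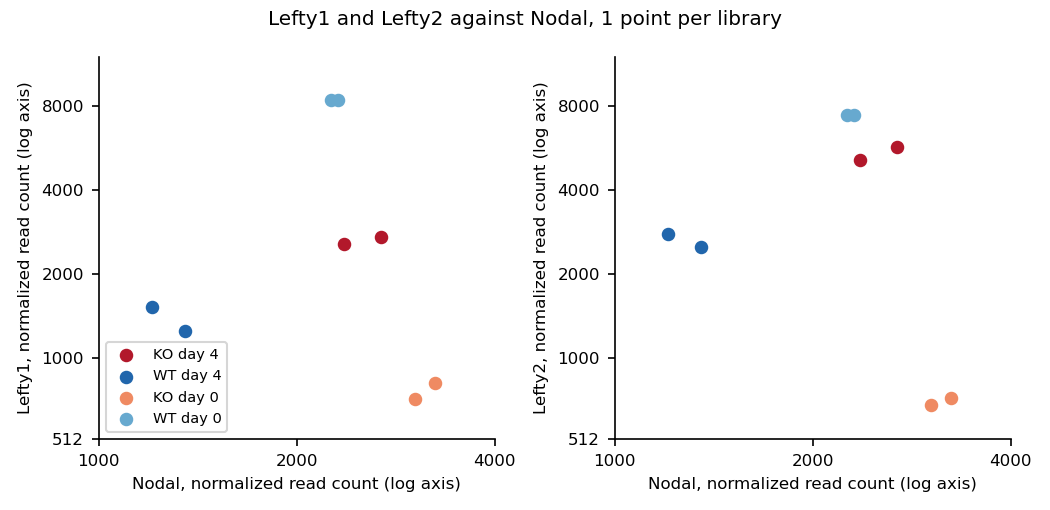
Normalized read counts of Lefty1 (left) and Lefty2 (right) against those of Nodal, both axes logarithmic, with 1 point per library. At day 4 the KO libraries lie above the WT libraries on both axes, whereas the KO libraries of day 0 combine the highest Nodal counts (3024 and 3249) with the lowest Lefty counts.

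Cer1, the third secreted inhibitor, was read only in WT embryoid bodies at day 4, with counts of 173 and 305, or 507 reads in all. Both KO libraries of day 4 and all 4 libraries of day 0 had 0 reads. Taking 3 reads over the group as the floor, which is a count of 1.58 in the KO libraries of day 4 and of 1.64 in the WT libraries of day 0, Cer1 was at least 151-fold lower in KO than in WT embryoid bodies and at least 146-fold higher in WT at day 4 than at day 0. Since Cer1 entered the test through the WT libraries of day 4 alone, no p-value is given for it.

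Between the WT libraries, that with more Cer1 (305 against 173) also had more T (1646 against 907) and Mixl1 (1135 against 515), genes of the primitive streak. It had less Afp (1277 against 1757) and Ttr (435 against 621). Of the other visceral endoderm markers Gata4 (1681 against 1197), Gata6 (617 against 429.6) and Sox7 (246 against 179) were higher in it, and the rest were lower. These are differences between 2 libraries and were not tested. The genes most like Cer1 over the 8 libraries, among 12280 genes with a mean of at least 50, were Aplnr (Pearson correlation 0.9975), Ccnd2 (0.9945) and Rftn1 (0.9939). Aplnr, the apelin receptor gene, had 0 in both KO and 1059 and 1907 in WT libraries of day 4.

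Tdgf1, the co-receptor, had counts of 20792 and 17583 in KO and of 10493 and 11845 in WT embryoid bodies at day 4 (0.78 ± 0.09, 1.71-fold, adjusted p = 2.61e-06). At day 0 it stood at 15812 and 15552 in KO and at 26778 and 27309.8 in WT cells (-0.79 ± 0.09, adjusted p = 1.64e-06). The genotypes did not overlap on either day, and the sign of the difference turned as it did for the Lefty genes. In WT Tdgf1 fell by 1.28 ± 0.09 with time (adjusted p = 1.23e-08), and the interaction was 1.56 ± 0.12 (adjusted p = 1.37e-07). The rise in KO was small (0.29 ± 0.09, adjusted p = 0.00972) and was no longer called without KO day 4 replicate 1 (0.17, adjusted p = 0.103) or without KO day 0 replicate 2 (0.27, adjusted p = 0.0564). Tdgf1 has pseudogenes of closely similar sequence, so its count is uncertain to that extent.

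Foxh1, the DNA-binding partner of the SMADs, had counts of 1623 and 1617 in KO and of 2023 and 2605 in WT embryoid bodies at day 4, 1.42-fold lower in KO (-0.50 ± 0.10, adjusted p = 0.000496). It rose with time in both genotypes, by 0.88 ± 0.10 in KO (adjusted p = 2.81e-06) and by 1.14 ± 0.10 in WT (adjusted p = 1.67e-07). The interaction missed the threshold (-0.26 ± 0.14, 95% interval -0.55 to 0.04, adjusted p = 0.126), and it passed without WT day 4 replicate 1 (-0.44, adjusted p = 0.00717).

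At day 0 Foxh1 had 892 and 867 in KO and 1051 and 1037 in WT cells. The difference was small (-0.25 ± 0.10, adjusted p = 0.0361), and it lost its call whenever any of the 4 libraries of day 0 was left out (adjusted p = 0.0793 to 0.134). The neighbouring gene Ppp1r16a lies 29 bases away, and the library kit does not mark strand, so reads at that edge cannot be assigned with certainty.

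Furin, which encodes a proprotein convertase of the secretory pathway, had counts of 1075 and 964 in KO and of 2056 and 1911 in WT embryoid bodies at day 4 (-0.96 ± 0.08, 1.95-fold lower in KO, adjusted p = 1.78e-07). At day 0 it had 1049 and 1060.3 in KO and 871 and 821 in WT cells (0.32 ± 0.08, adjusted p = 0.00296). In WT it rose 2.34-fold with time (1.23 ± 0.08, adjusted p = 1.07e-08). In KO the change was -0.05 ± 0.08 (95% interval -0.22 to 0.12, adjusted p = 0.604), and the KO libraries of the 2 days overlapped. The interaction was -1.28 ± 0.11 (adjusted p = 5.49e-07).

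Pcsk6, the gene of a secreted convertase (PACE4), had counts of 728 and 738 in KO and of 702 and 727 in WT embryoid bodies at day 4. The difference was 0.04 ± 0.07 with a 95% interval from -0.12 to 0.20 (adjusted p = 0.696). At day 0 Pcsk6 was higher in KO, with 1886 and 1818 against 1351 and 1277 in WT cells (0.50 ± 0.07, 1.41-fold, adjusted p = 4.19e-05). It fell with time by 1.34 ± 0.07 in KO (adjusted p = 2.75e-09) and by 0.88 ± 0.07 in WT (adjusted p = 1.65e-07). The interaction was -0.46 ± 0.11 (adjusted p = 0.00214).

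**Figure D3:**
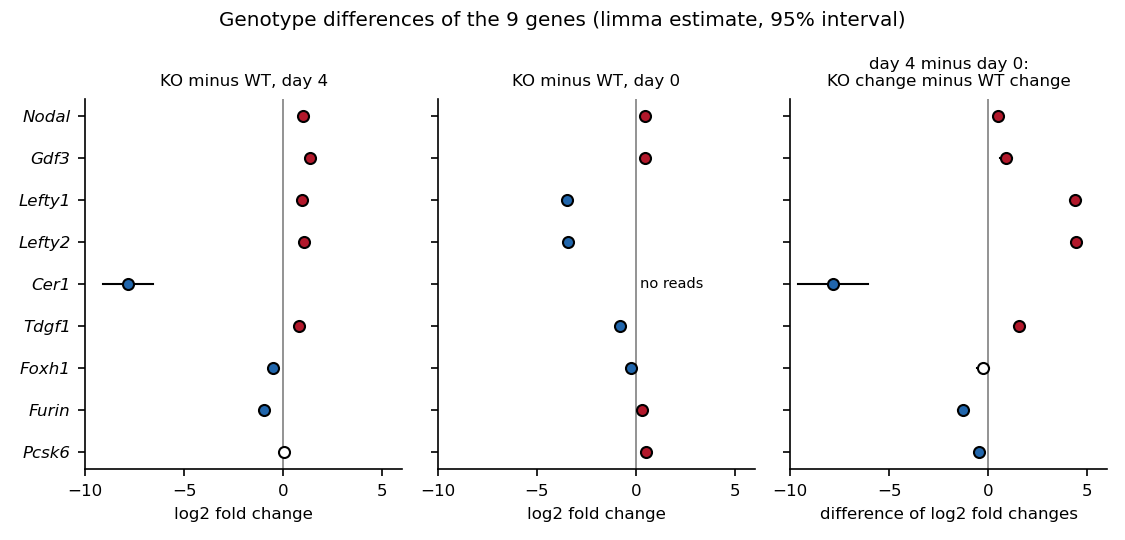
Log2 fold changes of the 9 genes (points) with 95% intervals from limma (lines, mostly shorter than the points) for KO minus WT at day 4, KO minus WT at day 0 and the KO change minus the WT change between the days. Red points passed the test as higher, blue points as lower and white points did not pass. Lefty1 and Lefty2 lie near -3.4 at day 0 and near 1 at day 4, and the Cer1 points (-7.85) are fitted values that depend on the pseudocount, of a gene that passed the filter through WT libraries of day 4 alone.

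Counted by time, 4 of the 9 genes rose and 3 fell between day 0 and day 4 in KO, where 60.0% of all genes were called (29.1% higher, 30.9% lower). In WT 3 rose and 6 fell, against 63.1% of all genes (32.3% higher, 30.8% lower). The medians of the 9 were 0.00 in KO and -0.88 in WT, against -0.02 and -0.00 over all genes. The 0.00 is the value of Cer1, which had no reads in KO. Without Cer1 the medians were 0.12 in KO and -1.08 in WT. The interaction was called for 8 of the 9 genes, 5 positive and 3 negative, against 55.7% of all genes (27.1% positive, 28.6% negative). Without Cer1, 2 of 8 rose and 6 fell in WT, and the interaction was positive for 5 of 8 and negative for 2. The KO and WT contrasts of a day and the time contrasts share libraries, so they are not independent.

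Of the receptors and transducers, 7 genes were tested. At day 4, 1 was higher and 2 were lower in KO, with a median of -0.05; 3 of 7 is a smaller share than the 56.2% of all genes called. Smad3, a transducer, had 1127 and 941 in KO and 1708 and 1761 in WT embryoid bodies (-0.75 ± 0.09, adjusted p = 8.97e-06). Cfc1, the gene of Cryptic, a co-receptor related to Tdgf1, moved against Tdgf1: it had 44.1 and 33.5 in KO and 409 and 721 in WT embryoid bodies (-3.79 ± 0.31, adjusted p = 1.31e-07). The groups did not overlap for either gene.

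The higher one was Acvr1b, the type I receptor gene (0.29 ± 0.09, adjusted p = 0.00995), a call that was lost without KO day 4 replicate 1 (0.18, adjusted p = 0.0992), without WT day 4 replicate 1 (0.21, adjusted p = 0.126) and after rescaling to the same total (0.19, adjusted p = 0.0671). Smad2, Smad4 and the type II receptor gene Acvr2b differed by -0.05 ± 0.07, -0.01 ± 0.07 and -0.05 ± 0.13 and did not pass. At day 0, 4 of the 7 were higher, among them Acvr2a (0.78 ± 0.08, adjusted p = 1.52e-06) and Smad4 (0.59 ± 0.07, adjusted p = 2.09e-06), and 2 were lower, among them Smad3 (-0.62 ± 0.09, adjusted p = 4.04e-05). Smad3 rose with time in KO (1.34 ± 0.09, adjusted p = 2.43e-08) and in WT (1.47 ± 0.09, adjusted p = 6.91e-09).

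Among 12 other genes that restrain Nodal or SMAD signalling, 7 were higher and 3 lower in KO embryoid bodies at day 4, with a median of 0.38. Over all genes 27.8% were higher and 28.4% lower. Smad7, an inhibitory SMAD, had 2013 and 2268 in KO and 901 and 1089 in WT embryoid bodies (1.11 ± 0.09, adjusted p = 1.07e-07). Skil, the gene of the SMAD co-repressor SnoN, had 17306 and 16114 in KO and 8311 and 8678 in WT embryoid bodies (0.98 ± 0.07, adjusted p = 3.13e-08). Both therefore stood about as far above WT as Nodal and the Lefty genes did. Tgif1 and Tgif2, co-repressor genes, were higher by 0.58 ± 0.06 (adjusted p = 2.37e-06) and 0.58 ± 0.07 (adjusted p = 1.34e-05).

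At day 0 the restraining genes split into 5 higher and 3 lower in KO, with a median of -0.00; 8 of 12 is close to the 67.2% of all genes called. Smad7 was higher (0.55 ± 0.09, adjusted p = 7.13e-05), and Skil did not pass (-0.08 ± 0.07, adjusted p = 0.306), although it did after quantile normalization (-0.23, adjusted p = 0.00934). Neither gene differed between the genotypes at day 0 by as much as Lefty1 or Lefty2. Skil rose in KO by 1.72 ± 0.07 with time (adjusted p = 9.2e-11) and in WT by 0.67 ± 0.07 (adjusted p = 1.33e-06), with an interaction of 1.06 ± 0.10 (adjusted p = 8.23e-07).

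A list of 12 genes taken as Nodal or SMAD targets, mostly of the streak and endoderm but also holding Fgf5 and Cdx2, went the other way from Nodal at day 4. Lefty1 and Lefty2, which are targets as well but not in this list, were higher in KO as Nodal was. All 12 were lower in KO embryoid bodies at day 4, with a median of -5.74, and all 12 rose with time in WT, with a median of 5.56. Over all genes 28.4% were lower in KO at day 4 and 32.3% rose in WT. Cdx2, Lhx1 and Mesp1 reached the filter through the WT libraries of day 4 alone, so they had to differ in both comparisons. T, the primitive streak regulator Brachyury, had 19.2 and 17.7 in KO and 907 and 1646 in WT embryoid bodies (-5.97 ± 0.29, adjusted p = 5.98e-10). Mixl1, a streak homeobox gene, had 10.2 and 11.8 in KO and 515 and 1135 in WT (-6.00 ± 0.44, adjusted p = 4.71e-08). Sox17, an endoderm regulator, and Gsc, an organizer gene, were lower by log2 fold changes of -6.38 ± 0.39 (adjusted p = 5.89e-09) and -4.21 ± 0.52 (adjusted p = 8.6e-06).

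Eomes, the T-box gene needed for mesendoderm, was lower in KO but not absent, with 702 and 711 against 1945 and 3225 in WT embryoid bodies (-1.83 ± 0.18, adjusted p = 1.17e-06). In KO 4 of the 12 targets rose with time and 1 fell, against 29.1% and 30.9% of all genes. Eomes rose by 2.41 ± 0.18 (adjusted p = 6.84e-08) and Fgf5, a gene of the post-implantation epiblast, by 5.53 ± 0.21 (adjusted p = 6.43e-11). At day 0, 2 of the 12 were higher and 4 lower in KO, against 33.9% and 33.3% of all genes.

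Of 6 WNT and BMP pathway genes (the ligand genes Wnt3, Wnt3a and Bmp4, the WNT targets and effectors Axin2 and Lef1, and the WNT antagonist gene Dkk1), 5 were lower in KO at day 4 and Lef1 did not pass, with a median of -2.54. Over all genes 28.4% were lower. Wnt3a and Dkk1 reached the filter through the WT libraries of day 4 alone, so they had to differ. Bmp4 had 179 and 155 in KO and 937 and 1293 in WT embryoid bodies (-2.72 ± 0.13, adjusted p = 6.87e-10), Wnt3 had 31.7 and 38.4 in KO and 338 and 552 in WT (-3.59 ± 0.26, adjusted p = 3.24e-08), and the WNT target Axin2 was lower by a log2 fold change of -1.78 ± 0.10 (adjusted p = 3.49e-09). At day 0 the 6 genes split into 2 higher, among them Bmp4 (0.85 ± 0.13, adjusted p = 5.86e-05), and 2 lower, among them Lef1 (-1.86 ± 0.11, adjusted p = 3.16e-09).

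Other convertase genes were mostly lower at day 4, as Furin was, with 5 of 7 lower in KO, 0 higher and a median of -0.43. Over all genes 28.4% were lower and 27.8% higher. Pcsk5, which encodes a convertase related to Pcsk6, had 5.66 and 5.91 in KO and 134 and 241 in WT embryoid bodies (-4.73 ± 0.37, adjusted p = 8.06e-08). At day 0, 3 of the 7 were higher and 3 lower, against 33.9% and 33.3% of all genes.

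Markers of other cell types differed with the genotype at day 4, and their part in the results for the 9 genes was not tested. All 11 visceral endoderm markers were lower in KO, with a summed count of 550 to 583 in KO against 12489 to 14160 in WT embryoid bodies. All 7 mesoderm and haemangioblast markers were lower, at 118 to 141 in KO against 6946 to 11831 in WT. Of the anterior visceral endoderm and node markers 7 were tested and 6 were lower, at 432 to 484 in KO against 1666 to 2005 in WT. Chrd did not pass, with 164 and 145 in KO and 120.1 and 111 in WT. Shh was too low to be tested, at 0 in KO and at 3.84 and 5.6 in WT. Among the genes of these lists Afp, Ttr, Apoa1, Msgn1, Lhx1 and Dkk1 reached the filter through the WT libraries of day 4 alone. They therefore had to differ. Over all genes 28.4% were lower in KO at day 4.

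The neuroectoderm markers summed to 653 to 701 in KO and 1796 to 1811 in WT at day 4, with 1 of 6 higher and 3 lower. Most of that sum was Nes, with a mean of 350.0 in KO and 1376 in WT; the 5 genes without it, a choice made after the values were seen, summed to 317 to 337 in KO and 301 to 553 in WT, which overlap. Pax6 was the higher one (1.06 ± 0.22, adjusted p = 0.000836). The sum without Nes thus joins opposite changes. Sox1 (12.4 and 12.8 in KO, 172 and 69 in WT) and Sox3 (136 and 134 in KO, 253 and 163 in WT) were lower in KO, with no overlap. Of the trophoblast markers 5 were tested, with 1 higher and 2 lower (sums of 2121 to 2430 in KO and 3875 to 4834 in WT). Eomes, also one of the streak targets, carried that difference: without it, again a choice made after the values were seen, the sums were 1410 to 1728 in KO and 1610 to 1929 in WT and overlapped. The 9 pluripotency factors summed to 82141 to 82322 in KO and 40993 to 42887 in WT at day 4, with 7 higher and 1 lower. The counts of these lists stand against 27.8% higher and 28.4% lower over all genes. Pou5f1 (1.24 ± 0.08, adjusted p = 6.87e-09), Otx2 (1.03 ± 0.08, adjusted p = 4.71e-08) and Esrrb (1.36 ± 0.07, adjusted p = 5.81e-10) were higher by amounts close to those of Nodal, Gdf3 and the Lefty genes, and Nanog was lower (-0.36 ± 0.07, adjusted p = 0.000276).

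At day 0 the same factors summed to 139446 to 148404 in KO and 119242 to 119794 in WT, also with 7 higher and 1 lower. The lower one was Pou5f1 (-0.43 ± 0.08, adjusted p = 0.000191), and Otx2 was higher (0.53 ± 0.08, adjusted p = 2.54e-05). The visceral endoderm sums of day 0 were 671 to 720 in KO and 872 to 908 in WT, and the mesoderm sums were 316 to 317 in KO and 213 to 223 in WT. None of these sums differed between the genotypes at day 0 by as much as Lefty1 and Lefty2 did, but the visceral endoderm sum joins opposite changes. Of its 11 genes 3 were higher and 4 lower in KO cells, against 33.9% and 33.3% of all genes. Hnf4a (10.2 and 13.4 in KO, 135 and 113 in WT) and Cubn (25.4 and 23.9 in KO, 223 and 224 in WT) differed nearly as much as the Lefty genes. Sox7 went the other way (103 and 101 in KO, 22.8 and 25.4 in WT).

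**Figure D4:**
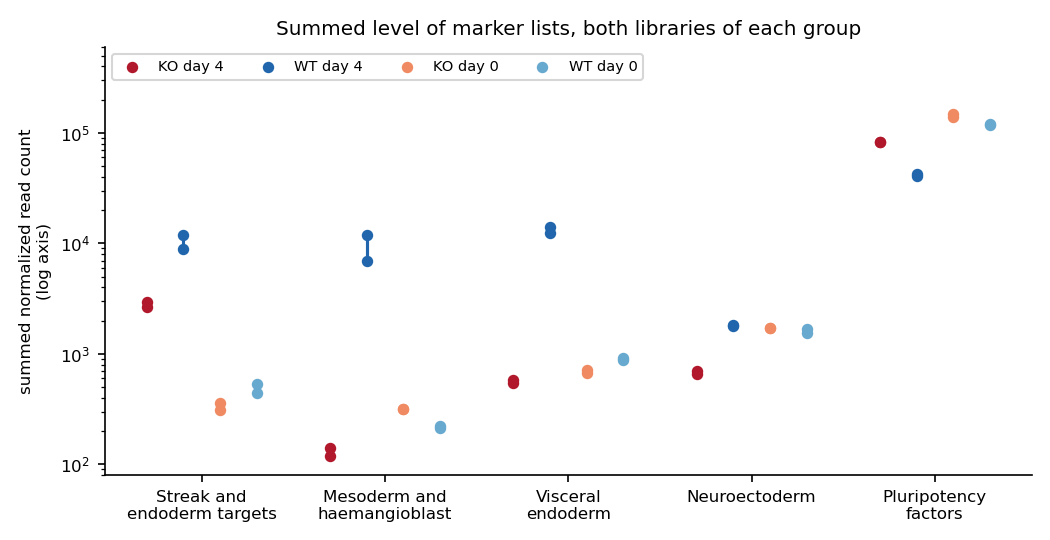
Summed normalized read counts (logarithmic axis) of 5 lists of marker genes, with both libraries of each group as points joined by a line. At day 4 the KO libraries lie below the WT libraries for streak and endoderm targets (2683 to 2966 against 8918 to 12024), mesoderm, visceral endoderm and neuroectoderm markers (the last mostly through Nes, without which the sums overlap), and above them for pluripotency factors.

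Genes whose counts followed the members most closely over the 8 libraries were taken from the same 12280 genes. For Nodal they were Bcat1 (Pearson correlation 0.9983), Pdgfc (0.9979) and Ccdc125 (0.9955). Bcat1, an enzyme of branched-chain amino acid breakdown, had 10069 and 11770.3 in KO and 3150.4 and 3639 in WT libraries of day 4, and 15257 and 15916 in KO and 8890.1 and 8823 in WT libraries of day 0. For Lefty1 they were Arhgap44 (0.9970), Ifrd2 (0.9963) and Cpne5 (0.9944), and for Lefty2 they were Tmem63a (0.9973), 1810014B01Rik (0.9942) and Ctu1 (0.9928). With 4 groups of 2 libraries such correlations rest on 4 conditions, and they are descriptions without a test.

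In the PDA cells the convertases were the only members with substantial counts. Tdgf1 and Gdf3 had no row in that table, and Nodal, Lefty2, Foxh1 and Cer1 had 0 to 2 reads in each library. Furin, Pcsk6 and Lefty1 passed the filter, Lefty1 through the WT libraries alone. In KO against WT, 1 of the 3 was higher and 1 lower under either treatment. Of all 13226 genes tested 40.2% were called under TGFβ (21.2% higher, 19.0% lower) and 56.2% under SB505124 (28.9% higher, 27.2% lower). Rescaling to the same total changed the split over all genes from 2808 higher and 2508 lower to 2360 higher and 3305 lower under TGFβ, and from 3828 higher and 3600 lower to 2975 higher and 4901 lower under SB505124.

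Pcsk6 was the higher one. It had counts of 6495 and 6015 in KO and of 3125 and 3107 in WT cells under TGFβ (1.00 ± 0.08, 2.01-fold, adjusted p = 4.05e-05), and of 7096 and 7255 in KO and 3157 and 3561 in WT cells under SB505124 (1.10 ± 0.08, 2.14-fold, adjusted p = 2.34e-05). All 4 KO libraries lay above all 4 WT libraries. Pcsk5 was also higher in KO, by 1.99 ± 0.10 under TGFβ (adjusted p = 4.73e-06) and by 2.53 ± 0.10 under SB505124 (adjusted p = 1.67e-06). In embryoid bodies of day 4, Pcsk6 had not passed the test and Pcsk5 had been lower in KO. The tables were normalized separately, and this contrast was not tested across them.

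Lefty1 was the lower one, on few reads. It had counts of 4.53 and 3.64 in KO and of 13.9 and 15.7 in WT cells under TGFβ (-1.64 ± 0.31), and of 4.02 and 3.67 in KO and 11.0 and 11.9 in WT cells under SB505124 (-1.36 ± 0.31). The groups did not overlap, but the libraries held only 2 to 17 reads of it. Since it reached the filter in WT libraries alone, it had to differ, and no p-value is given for it. Furin had 14413 and 9521 in KO and 13692 and 13169 in WT cells under TGFβ, and these groups overlapped (-0.20 ± 0.23, adjusted p = 0.536). Under SB505124 it had 8442 and 9539.6 in KO and 4997 and 7630.1 in WT cells (0.54 ± 0.23, 95% interval -0.00 to 1.08, adjusted p = 0.0814). That difference did pass with DESeq2 (adjusted p = 0.0150), without WT SB505124 replicate 2 (0.84, adjusted p = 0.0121) and without either KO TGFβ library (adjusted p = 0.0342 and 0.0347).

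TGFβ against SB505124 compares a 1.5 h treatment with one of 6 h, so the ligand and the time cannot be told apart. In KO cells none of the 3 members was called by limma, against 38.7% of all genes (20.6% higher, 18.0% lower), though Pcsk6 passed with edgeR (-0.24, adjusted p = 0.0484) and without either WT SB505124 library (adjusted p = 0.0321 and 0.0318). Pcsk6 was also the 1 member of the 3 whose unadjusted p was under 0.05, and DESeq2 called 0. Furin in KO changed by 0.38 ± 0.23 (95% interval -0.16 to 0.92, adjusted p = 0.232). In WT cells Furin was higher under TGFβ (1.12 ± 0.23, 2.17-fold, adjusted p = 0.00816), where 36.9% of all genes were called (19.4% higher, 17.6% lower). The call was lost without WT TGFβ replicate 1 (adjusted p = 0.0594) or replicate 2 (adjusted p = 0.0516).

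No member's interaction of genotype and treatment passed, against 21.8% of all genes (9.71% positive, 12.1% negative); 0 of the 3 had an unadjusted p under 0.05, and edgeR and DESeq2 called 0. That of Furin was -0.74 ± 0.33 (adjusted p = 0.149), and it passed without KO TGFβ replicate 1 (adjusted p = 0.0409) or WT SB505124 replicate 2 (adjusted p = 0.0291). For comparison, Smad7 rose under TGFβ by 2.19 ± 0.09 in KO (adjusted p = 4.09e-06) and by 2.60 ± 0.09 in WT cells (adjusted p = 2.55e-06), and Skil by 2.63 ± 0.09 in KO (adjusted p = 1.7e-06) and by 3.34 ± 0.09 in WT cells (adjusted p = 1.2e-06). Replicates of the KO TGFβ group and of the WT SB505124 group differed more from each other than those of the other 2 groups: the chi-square per degree of freedom over genes was 39.2 and 48.5, against 1.94 (WT TGFβ) and 2.95 (KO SB505124).

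In the organoids Tdgf1 and Cer1 had no row, Gdf3 had 0 reads in all 4 libraries, and Nodal, Lefty2 and Foxh1 had at most 1 read in any of them. The chosen floor of 3 reads was a count of 2.23 to 3.4 by library. The exact 95% upper limit of 0 reads was a count of 2.74 to 4.17. With 1 library per condition no test was made, and the 95% intervals that follow are exact Poisson intervals of the reads, which cover counting error only. Lefty1 had a count of 82.6 (64.8 to 104) with dox and 10.5 (5.04 to 19.3) without dox under TGFβ, and of 69.9 (56.5 to 85.6) with dox and 27.6 (18.9 to 39.0) without dox under SB505124. Under both treatments the intervals with and without dox did not overlap.

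Pcsk6 in the organoids was also higher with dox, with 2886 against 1554 without dox under TGFβ and 4489 against 1684 under SB505124. Furin was lower with dox, with 6705 against 7844 under TGFβ and 4397 against 5847 under SB505124, and higher under TGFβ than under SB505124 with and without dox. These are differences between single libraries.

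**Figure D5:**
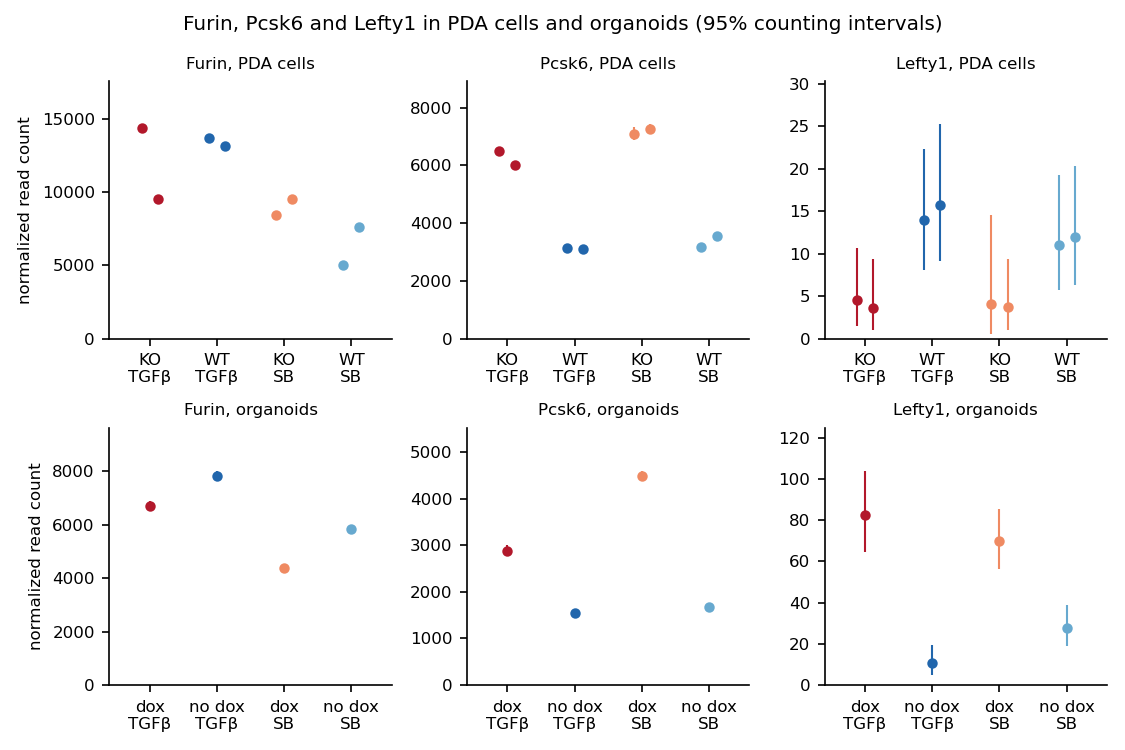
Normalized read counts (linear axes from 0) of Furin, Pcsk6 and Lefty1 in PDA cells (top, 2 libraries per group) and organoids (bottom, 1 library per condition), with exact 95% counting intervals as lines. Pcsk6 lies at 6015 to 7255 in the KO PDA libraries and at 3107 to 3561 in the WT PDA libraries.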

How the data were processed

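RNA-seq libraries, 20 of the 36 samples, were used; the 16 ChIP-seq and ATAC-seq samples were not analysed here. The deposited signal is a normalized read count, in 3 tables normalized separately. Tools listed in the submitters' processing notes, without roles, are HTSeq 0.6.1p1, DESeq2 3.4, Bowtie2 and FastQC 0.11.5, with the mm10 build. Dividing by the smallest step of a library gave whole reads for 100% of values (tolerance 0.001), which gave depths and intervals. Genes that reached 10 in 2 or more of 8 libraries were kept, transformed as log2(value + 1) and fitted with limma 3.58.1 (R 4.3.3, trend) over all 8 libraries of a table in 4 groups of 2. P-values are two-sided, adjusted by Benjamini-Hochberg over all genes tested, with a threshold of 0.05. Fold changes on this scale understate those of low genes. Alternatives were pseudocounts of 0.1 and 10, no filter, a filter of 50, rescaling to the same total, quantile normalization, edgeR 4.0.16 and DESeq2 1.42.0 on the recovered reads, a replicate block, each library left out and only the groups of a contrast. The fit was tested on simulated data. The 9 members and 12 gene lists were chosen with earlier results of these data known. Named genes were the members, Rreb1, a fixed set of pathway and marker genes, the list genes with the smallest adjusted p (up to 4 per embryoid body contrast, up to 2 per PDA contrast) and the 3 most similar genes of Nodal, Lefty1, Lefty2 and Cer1; the chromosomal neighbours were chosen after their values were seen. Some genes that these rules name are not reported here.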

Additional observations from a re-analysis of the deposited data

Results flagged for a closer look

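For 7 of the 8 genes other than Cer1 the change between day 0 and day 4 differed between KO and WT, by limma's test of the interaction (KO change minus WT change on the log2 scale, 2 libraries per group). The largest were those of Lefty2 (4.44, adjusted p = 6.05e-12) and Lefty1 (4.40, adjusted p = 2.05e-11), which rose in KO and fell in WT. Tdgf1 (1.56, adjusted p = 1.37e-07), Gdf3 (0.90, adjusted p = 0.000124) and Nodal (0.52, adjusted p = 0.00156) had positive interactions as well. Furin (-1.28, adjusted p = 5.49e-07) and Pcsk6 (-0.46, adjusted p = 0.00214) had negative ones. That of Cer1 (-7.85) is a fitted value that depends on the pseudocount, since 3 of its 4 groups had no reads; Cer1 entered the test through the WT libraries of day 4 alone, so its call is no support, and edgeR and DESeq2 did not make it. Over all genes 55.7% had a called interaction. Groups of 2 libraries are too small to single out a library within a group.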

How the results depend on the processing

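In the embryoid body table the number of members called stayed within 1.5 times its value under all alternatives. Over the members' values there, 751 kept direction and side of the threshold, 11 lost the call, 1 gained it and 2 changed sign, both uncalled: Pcsk6 at day 4 after rescaling to the same total (-0.06) and Furin over time in KO (-0.13 to 0.03 with 1 library left out). Foxh1 at day 0 also lost its call with no filter (adjusted p = 0.0641). Other uncalled values that changed sign at day 4 were Rreb1 without KO day 4 replicate 1 (-0.02; without replicate 2 it passed at 0.32, adjusted p = 0.00506), Acvr2b, Smad2 and Smad4 without KO day 4 replicate 2 (0.14, 0.05 and 0.03; without replicate 1 Acvr2b was -0.23 and Smad2 -0.14) and Smad4 without WT day 4 replicate 2 (0.01). Over the PDA values 245 stayed, 4 lost the call, 9 gained it and 3 changed sign: Furin under TGFβ (-0.50 to 0.10 with 1 library left out) and Lefty1 over treatment in KO after quantile normalization (-0.16) and with 1 library left out (-0.06 to 0.19). Members called there moved to 1 under TGFβ (filter of 50, DESeq2; otherwise 2), to 1 under SB505124 (filter of 50; otherwise 2) and to 1 for treatment in KO with edgeR (otherwise 0). With 1 library left out they ranged from 0 to 1 for treatment in KO, for treatment in WT and for the interaction; the cause was not tested. The PDA calls over all genes, 5316 for KO against WT under TGFβ, 5113 for treatment in KO, 4887 for treatment in WT and 2886 for the interaction, fell as low as 3212, 2956, 2254 and 764 with 1 library left out. Rescaling to the same total moved the median of all genes to -0.106 (day 4), -0.156 (PDA, SB505124) and 0.133 (treatment in KO, 3830 higher and 1802 lower against 2731 and 2382), and turned the PDA interaction to 1869 positive and 1388 negative against 1284 and 1602. Over the alternatives the adjusted p ran from 0.00792 to 0.134 for Foxh1 at day 0, from 0.00717 to 0.568 for the Foxh1 interaction and from 0.000873 to 0.103 for Tdgf1 over time in KO. In PDA cells it ran from 0.0121 to 0.382 for Furin under SB505124, from 9.69e-08 to 0.0594 for Furin over treatment in WT, from 0.0291 to 0.330 for its interaction and from 0.0318 to 0.403 for Pcsk6 over treatment in KO. Among other genes it ran from 0.00146 to 0.126 for Acvr1b at day 4 and from 0.00934 to 0.924 for Skil at day 0. Replicate numbers did not pair libraries in the embryoid body table (correlations of replicate differences -0.033 to 0.091). In PDA these ran from -0.506 to 0.144. The -0.506 was between the KO TGFβ and WT SB505124 groups, whose replicates also differed most, so their libraries deviated together with crossed numbers. The reason was not tested, and Furin in these groups carries this limit. With the replicate block the members called stayed at 8, 8, 7, 9 and 8 in the 5 embryoid body comparisons, and the PDA interaction went to 1596 genes. Leaving out a library assumes that the lone library of a group varies like the other groups. Few reads of Lefty1 limit its precision in PDA cells.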

Other observations

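The genes next to the members, chosen after their values were seen and not tested, differ in how far they moved with them. On chromosome 1, Tmem63a starts 3.9 kb after Lefty1 and had counts of 143 and 153 in KO and of 827 and 815 in WT cells at day 0, and of 681 and 625 in KO and 381 and 385 in WT embryoid bodies at day 4. It was also the gene most like Lefty2 among 12280. Sde2, 24995 bases before Lefty2, had 4758 and 4752 in KO and 2568 and 2541 in WT cells at day 0, the other direction.

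Lrrc2, 5.4 kb from Tdgf1, had a log2 difference of 1.71 at day 4 and -0.49 at day 0, the signs of Tdgf1. Dppa3, a germ line and naive pluripotency gene 16.3 kb from Gdf3, had 14.7 and 16.8 in KO and 382 and 397 in WT embryoid bodies at day 4, against the direction of Gdf3. Frem1, 12.8 kb from Cer1, had 48.7 and 49.3 in KO and 134 and 272 in WT embryoid bodies, and its higher WT library was the one with more Cer1. Eif4ebp2, 3.2 kb from Nodal, differed by -0.13 at day 4 and 0.00 at day 0.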
